A study of Mus musculus with 7 samples.

Results

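The regions that were open selectively in vasoactive intestinal polypeptide (VIP)-expressing interneurons of the mouse cortex numbered 4738 of the 323369 genomic regions on which ATAC-Seq reads were counted. ATAC-Seq measures how readily a transposase inserts into chromatin, and thus how accessible a stretch of DNA is. The regions were chosen from their own read counts. Each of 6 samples was scaled to CPM, the reads per 1000000 reads in all regions. A region was kept when the lower of its 2 VIP values was at least 5 CPM and at least 2 times the highest of the 4 values from somatostatin (SST)- and parvalbumin (PV)-expressing interneurons. The difference between VIP and the other interneurons is therefore the criterion for membership, and its values are given here as a description. The rule did not use the position of the regions, their conservation, their sequence, the genes near them or the difference between SST and PV.

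The study profiled nuclei of the 3 interneuron classes from whole cortex, with 2 samples per class, to find regulatory elements restricted to one of them. The nuclei came from uninjected F1 mice of 6 to 12 weeks that carried Sst-IRES-Cre, Vip-IRES-Cre or Pv-Cre together with SUN1-2xsfGFP-6xMYC, a Cre-dependent tag on the nuclear envelope that allows tagged nuclei to be pulled down with an antibody to GFP (INTACT). Each ATAC-Seq replicate came from a single animal by the study's methods, and the mice were male by the sample labels but of both sexes by the protocol. In addition, single-nucleus RNA-Seq (snRNA-Seq) was available for 1 sample of primary visual cortex from C57BL/6J mice of 6 to 10 weeks injected with the SST PESCA AAV9 library, a pool of viruses that carry candidate regulatory elements, in 10 libraries that form 2 sets of 5. Each interneuron class is defined by the past or present activity of its Cre driver.

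VIP interneurons arise in the caudal ganglionic eminence of the embryonic forebrain, whereas SST and PV interneurons arise in the medial ganglionic eminence. In the adult cortex, many VIP cells contact other interneurons, above all SST cells, and so relieve excitatory neurons of inhibition. Gene regulatory elements that distinguish such classes often lie far from the promoters they act on, and several transcription factors usually bind a short accessible stretch of DNA together.

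The following sequences show the central 300 bp of 6 of the selective regions in mm10 (GRCm38), plus strand, each named by its nearest protein-coding gene. They were chosen after the values were seen, among windows without an annotated exon. They are a region beyond the Vip gene, the regions with the highest VIP level near Htr3a, Prox1, Nr2f2 and Maf, and the region with the largest ratio of VIP to the other samples. Capitals mark, on either strand, the letters TTGGCA (a core site of NFI factors), ACAATG (a SOX site), CAGCTG and CAGATG (E-boxes, which bind basic helix-loop-helix factors).
Vip (chr10:5650864-5651163): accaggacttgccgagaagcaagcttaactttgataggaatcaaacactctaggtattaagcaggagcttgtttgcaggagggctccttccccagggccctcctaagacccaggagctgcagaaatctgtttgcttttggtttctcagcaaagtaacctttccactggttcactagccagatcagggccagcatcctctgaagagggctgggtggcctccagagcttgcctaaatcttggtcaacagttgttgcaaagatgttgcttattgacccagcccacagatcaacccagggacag
Htr3a (chr9:48928884-48929183): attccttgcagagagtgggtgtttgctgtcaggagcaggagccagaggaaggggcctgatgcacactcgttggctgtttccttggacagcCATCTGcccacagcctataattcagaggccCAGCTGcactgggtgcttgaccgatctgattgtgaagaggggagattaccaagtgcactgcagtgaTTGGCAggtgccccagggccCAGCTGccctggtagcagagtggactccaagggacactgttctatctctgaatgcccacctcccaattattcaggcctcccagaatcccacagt
Prox1 (chr1:190259657-190259956): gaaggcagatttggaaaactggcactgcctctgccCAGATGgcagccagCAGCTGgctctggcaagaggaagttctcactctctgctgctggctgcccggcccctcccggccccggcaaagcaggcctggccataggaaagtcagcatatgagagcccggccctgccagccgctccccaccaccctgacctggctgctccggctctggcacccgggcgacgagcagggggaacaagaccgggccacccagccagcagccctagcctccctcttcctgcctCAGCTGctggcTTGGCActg
Nr2f2 (chr7:70130093-70130392): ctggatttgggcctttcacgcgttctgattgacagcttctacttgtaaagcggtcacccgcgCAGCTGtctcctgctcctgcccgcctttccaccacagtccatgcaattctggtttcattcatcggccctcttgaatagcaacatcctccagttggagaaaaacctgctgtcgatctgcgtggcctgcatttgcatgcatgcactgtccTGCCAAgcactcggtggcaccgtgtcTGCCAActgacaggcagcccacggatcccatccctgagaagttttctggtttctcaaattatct
Maf (chr8:115414260-115414559): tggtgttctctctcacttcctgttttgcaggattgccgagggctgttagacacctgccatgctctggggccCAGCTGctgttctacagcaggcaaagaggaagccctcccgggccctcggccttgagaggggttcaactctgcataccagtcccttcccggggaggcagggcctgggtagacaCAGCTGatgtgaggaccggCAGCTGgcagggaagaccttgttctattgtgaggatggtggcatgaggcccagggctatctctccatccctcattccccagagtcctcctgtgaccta
Il17a (chr1:20678025-20678324): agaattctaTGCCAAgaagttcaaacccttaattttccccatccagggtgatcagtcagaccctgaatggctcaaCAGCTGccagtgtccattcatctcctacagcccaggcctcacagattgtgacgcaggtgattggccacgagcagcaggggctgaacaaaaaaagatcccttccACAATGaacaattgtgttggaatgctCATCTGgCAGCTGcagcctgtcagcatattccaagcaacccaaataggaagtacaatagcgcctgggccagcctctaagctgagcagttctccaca
The window beyond Vip held none of the 4 motifs. That near Il17a held all 4, and those near Htr3a and Prox1 held the NFI site with both E-boxes. The Maf window held CAGCTG at 3 places and no other of the 4, and the Nr2f2 window held 2 NFI sites and 1 CAGCTG.

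The 6 samples held 1801883 to 2256073 reads in the reference regions, of which the VIP samples held 2014353 and 2237095. A count of 0 in a sample allowed a level of up to 1.33 to 1.66 CPM, the value of 3 reads, and such limits cover counting error only. Accessible regions are here the 37037 regions with at least 5 CPM in both replicates of at least 1 class. Over these, log2 CPM of the VIP replicates had a Pearson r of 0.943, against 0.899 for SST and 0.932 for PV, and r was 0.493 to 0.605 between VIP and the other classes and 0.794 to 0.835 between SST and PV. These are correlations across regions, which share libraries and are not independent. Regions at the Vip promoter had 13.4 and 17.9 CPM in the VIP samples and 0.508 to 3.67 CPM in the others. Those at the promoters of Lhx6, a transcription factor of medial eminence interneurons, had 1.49 and 2.24 CPM in VIP and 27.5 to 42.5 CPM in SST and PV. Some other promoters of these lists were less distinct. Those of Maf had 59.1 and 76.0 CPM in VIP and 34.6 to 52.5 elsewhere, and those of Igf1, a VIP marker, had 3.48 and 6.71 CPM in VIP and 7.35 to 15.5 elsewhere. Summed over the 14 VIP markers, promoters had 231 and 240.5 CPM in VIP and 109 to 141 in the others, with 4 VIP-selective regions among them, and over the 7 medial eminence regulators 274 and 293 against 312 to 341. Promoters of the excitatory genes Slc17a7, Neurod2 and Neurod6 were at most 3.33 CPM in every sample. Summed over marker promoters, the 7 excitatory genes had 63.0 and 63.5 CPM in VIP and 54.4 to 80.7 in the other samples, the 5 astrocyte genes 39.7 and 36.7 against 43.2 to 55.4, and the 4 microglia genes 3.48 and 4.92 against 4.199 to 9.15. The 7 oligodendrocyte lineage genes stood at 61.6 and 70.2 CPM in VIP against 33.9 to 53.6 in the others, of which Pdgfra gave 45.7 and 48.3 against 13.1 to 19.5, through a region that is itself VIP-selective, and Mog was at most 1.53 CPM in every sample. The 4 vascular genes stood at 42.7 and 46.5 against 33.6 to 43.8, of which Vtn alone gave 38.7 and 43.8 against 23.9 to 35.9. The part of these levels in the selective regions was not tested. In bulk nuclei, a region open in fewer cells and a region less open in each cell cannot be told apart.

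The selective regions were well covered in VIP and close to the detection limit elsewhere. Their median was 10.9 and 12.5 CPM in the VIP replicates, with the highest region at 182 and 196 CPM. In the SST replicates the median was 1.57 and 1.33 CPM and in the PV replicates 1.53 and 1.66 CPM, which is the level that 3 reads give. The regions took up 7.28% and 8.20% of all reads in the VIP samples and 1.03% to 1.10% in the others. Reads were absent from all 4 SST and PV samples in 20 regions. By the rule no SST or PV value overlaps a VIP value. The median ratio of the lower VIP value to the highest other value, each with 0.5 CPM added, was 3.43, and 1864 regions had a ratio of 4 or more. VIP replicate 2 was the higher VIP sample in 2989 regions and replicate 1 in 1749. The median region rested on 50 reads over both VIP replicates together, and the lower replicate never had under 11. Applied to the other classes, the same rule gave 826 SST-selective and 1539 PV-selective regions, so that 12.8% of accessible regions were selective for VIP, 2.23% for SST and 4.16% for PV. These shares are not directly comparable, since the rule sets SST and PV against each other as well as against VIP. Over accessible regions r was 0.794 to 0.835 between SST and PV and 0.493 to 0.605 between VIP and either. The part of this likeness in the shares was not tested. With the means of replicates in place of their lowest and highest values, the number of VIP-selective regions was 7923, and without VIP replicate 1 it was 7318.

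**Figure D1:**
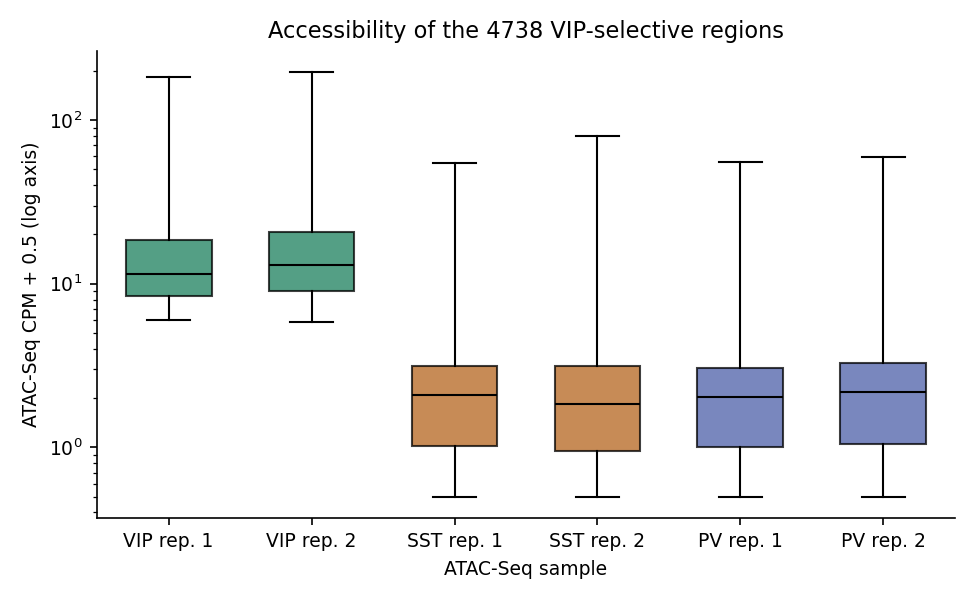
ATAC-Seq CPM with 0.5 added, on a log axis, for the 4738 VIP-selective regions in each of the 6 samples. The median lies at 10.9 and 12.5 CPM in the VIP replicates and between 1.33 and 1.66 CPM in the other 4 samples, a separation that the choice of regions requires.

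At the edges of the rule the values leave no gap. The members with the smallest ratio lay near Per3, Tmbim1 and Ctdsp2, at 29.5, 39.7 and 75.5 CPM in the lower VIP replicate against 14.7, 19.8 and 37.7 CPM in the highest other sample. Just outside, regions near Adamts12, Bbs10 and Arrb2 had 12.4, 37.7 and 9.43 CPM against 6.21, 18.9 and 4.72 CPM. Members at the lowest level, among them regions near Grm4, Elp6 and Abcg1, had 5.36 CPM. Regions left out just below the limit, among them ones near Tbx3, Akr1b3 and Lingo1, had 4.96 CPM.

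The largest contrasts lay mostly between genes. A region of 664 bp at chr1:20677843-20678506, 52731 bp from the start of Il17a, a cytokine gene, had the largest ratio of all, 40.9. Its values were 42.7 and 52.7 CPM in the VIP replicates, 0.525 and 0 in the SST replicates and 0 and 0.555 in the PV replicates. The SST and PV samples thus had at most 1 read each there. Regions near Hs3st3a1 (18.4 and 21.0 CPM in VIP), which encodes a heparan sulfate sulfotransferase, Plppr4 (24.3 and 18.3 CPM), which encodes a synaptic membrane protein, and Efnb1 (15.9 and 14.8 CPM), the ephrin-B1 gene, had 0 reads in all 4 SST and PV samples. Further regions among the 10 with the largest ratio, from 30.0 to 34.5, lay near Prdm11, Sertm1, Mycn and Inhbb and in an intron of Aldh1l1. Although Aldh1l1 is an astrocyte marker, this intronic region had 33.3 and 31.3 CPM in VIP, and the SST and PV samples had at most 1 read each.

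The highest VIP levels, which are CPM per region and not divided by its width, were found both at promoters and far from them. The promoter of Cand1, which encodes a regulator of ubiquitin ligases, had 182 and 196 CPM in VIP, 54.1 and 79.3 in SST and 54.9 and 58.8 in PV. Promoters of Rap1b (a small GTPase), Trio (an exchange factor for GTPases), Nectin3 (an adhesion molecule) and Dlgap1 (a postsynaptic scaffold protein), a region near Sertad4 and an intron of Hdac7, a histone deacetylase gene, were also among the 10 highest, and each of the promoters was just above the required ratio. The region near Sertad4 had 108 and 118 CPM in VIP and 33.3 to 44.8 in the others, and that in Hdac7 had 91.8 and 115 CPM in VIP, 12.6 and 12.9 in SST and 31.02 and 31.6 in PV. Some regions away from promoters had larger contrasts. Near Mycn, a transcription factor gene of the MYC family, chr12:12904341-12905229 had 158 and 174 CPM in VIP, 18.4 and 13.3 in SST and 23.4 and 25.5 in PV, and a second region 64136 bp from the same start had 94.3 and 84.0 CPM in VIP and at most 2.22 in the other samples. A region in an exon of Shank3, the gene of a scaffold protein of excitatory synapses, had 93.3 CPM in VIP replicate 1 and 4.44 to 7.87 CPM in SST and PV. The region 165313 bp from the start of Inhbb, which encodes a subunit of inhibin and activin, was in both lists, at 94.3 CPM in VIP replicate 1 and at most 2.66 CPM in the SST and PV samples.

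Peaks that the authors called in each sample from the same reads followed the counts, as they must. A peak covered 4440 (93.7%) of the regions in VIP replicate 1 and 4505 (95.1%) in replicate 2, and 4361 (92.0%) in both. The median −log10 q-value of these peaks was 20.0 and 26.8. In each SST and PV sample, 766 to 858 regions (16.2% to 18.1%) had a peak, with a median of 7.30 to 8.21. Peaks were present in both VIP replicates and in no SST or PV sample for 2975 regions (62.8%), whereas 154 regions had no peak in either VIP replicate. In VIP replicate 1, the deposited table of 0 and 1 marked 4624 of the regions, more than its peak list covered. In PV replicate 1 it marked 1057, where the peak list covered 848.

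VIP-selective regions lay mostly outside promoters. Only 316 of them (6.67%, exact 95% binomial interval 5.98 to 7.42) overlapped the 1000 bases before to 100 bases after a start of a protein-coding transcript, against 39.7% of accessible regions and 8.88% of all reference regions. Of the remainder, 381 (8.04%) overlapped an exon, 1776 (37.5%) lay in introns and 2265 (47.8%, 46.4 to 49.2) lay outside protein-coding genes. SST-selective regions had 6.42% at promoters and 47.9% outside genes. PV-selective regions had 7.73% at promoters, 42.4% in introns and 39.6% outside genes. The centre of a VIP-selective region was a median of 54282 bp (51420 to 57695) from the closest outer start of a protein-coding gene, which leaves out the starts of its shorter transcripts, and 1578 regions (33.3%) were more than 100 kb away. For SST-selective, PV-selective and all reference regions the medians were 58172, 52646 and 59190 bp, with 33.2%, 33.0% and 37.7% beyond 100 kb. For accessible regions the median was 14494 bp, with 17.8% beyond 100 kb. Outside promoters the median was 45608 bp for accessible and 60794 bp for VIP-selective regions. These intervals treat regions as independent, although 76 of the VIP-selective regions overlapped another one and 757 lay within 10 kb of another. With starts of genes of all types, the median distance was 19657 bp.

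The share of accessible regions that were VIP-selective ranged from 10.1% on chromosome 19 to 16.4% on chromosome 16 among autosomes. On the X chromosome it was 5.89%, or 41 of 696. The sex of single animals was not used, and its part in the X chromosome's share was not tested.

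The deposited phyloP score, a mean over the bases of a region from the placental track of a 60-genome alignment, had a median of 0.144 (0.136 to 0.156) in VIP-selective regions, 0.121 (0.101 to 0.142) in SST-selective, 0.125 (0.110 to 0.140) in PV-selective, 0.154 (0.150 to 0.158) in accessible and 0.0642 in all reference regions. Promoters are conserved and were scarce among the selective regions. The intervals of VIP-selective and accessible regions overlap, and with a minimum of 10 CPM in place of 5 the VIP-selective median was 0.175. Accessible regions were not recomputed at 10 CPM. When promoters were left out, the median was 0.142 (0.132 to 0.151) for VIP-selective regions and 0.120 (0.116 to 0.125) for accessible regions. A score of at least 0.5 was reached by 830 VIP-selective regions (17.5%, 16.4 to 18.6), 14.5% of SST-selective, 13.2% of PV-selective, 18.9% of accessible and 11.2% of all regions. Outside promoters it was reached by 17.1% (16.02 to 18.3) of VIP-selective and 16.1% (15.6 to 16.6) of accessible regions. Among the 5 most conserved members were regions in an exon of Prox1 (2.42), near Tmem161b (2.28) and Cypt12 (2.25), and in an intron of Mctp1 near Slf1 (2.15). The Prox1 region, chr1:190161860-190162587, had 9.43 and 8.49 CPM in VIP, 1.05 and 0.443 in SST and 1.02 and 1.11 in PV.

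**Figure D2:**
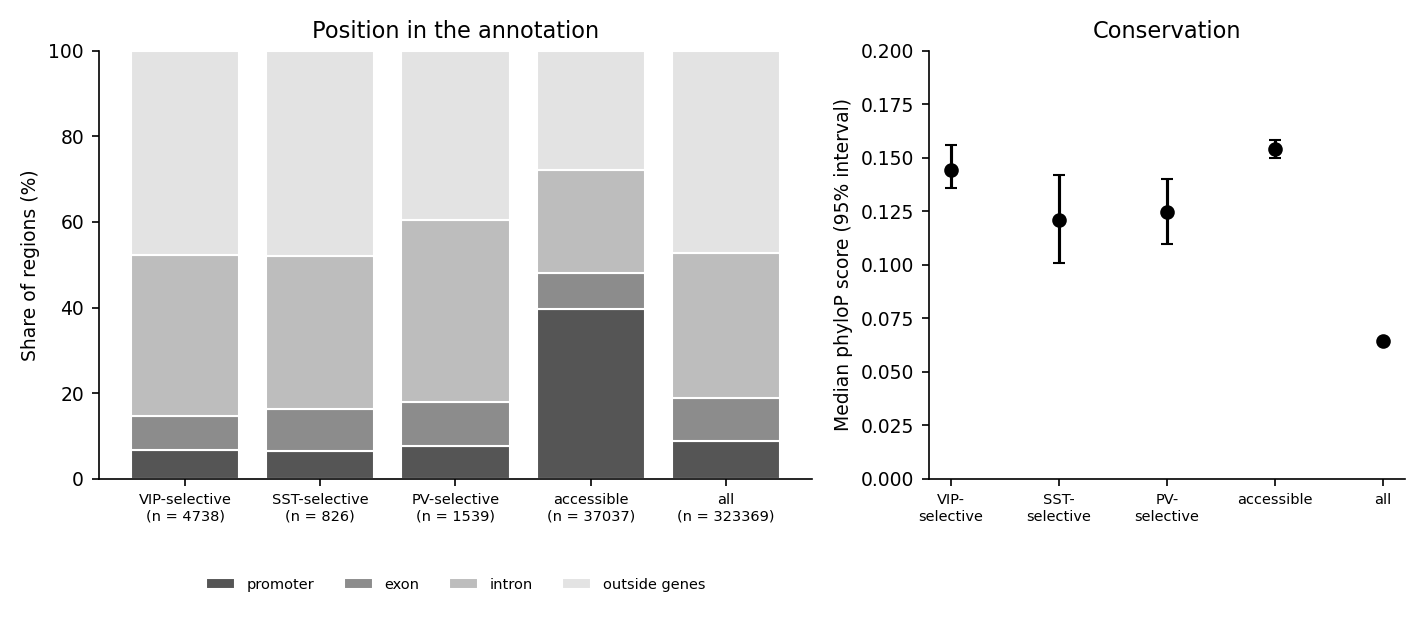
Left, share of regions at promoters, in exons, in introns and outside protein-coding genes, in percent, for VIP-selective, SST-selective, PV-selective, accessible and all regions. Right, median phyloP score with its 95% interval for the same sets. Promoters make up 6.67% of VIP-selective regions but 39.7% of accessible ones, and the intervals of the VIP-selective median of 0.144 and the accessible median of 0.154 overlap.

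Genes of VIP interneurons had many selective regions near them. Of 14 VIP marker genes, 10 were the nearest gene of at least 1 VIP-selective region. Over all 14056 genes nearest to accessible regions this held for 3024 (21.5%). Of the 48 accessible regions nearest to the VIP markers, 22 (45.8%) were VIP-selective, compared with 12.8% over all accessible regions. The mirrored rules found 1 SST-selective and 0 PV-selective regions there. The promoter of Vip itself, chr10:5638905-5639646, had 12.9 and 16.5 CPM in VIP, 2.62 and 1.33 in SST and 0 and 1.11 in PV. A weaker region 11795 bp from the same start, beyond the gene, had 5.96 and 5.81 CPM in VIP and at most 1.57 CPM elsewhere. Both accessible regions nearest to Vip were thus selective. Htr3a, the ionotropic serotonin receptor gene that marks caudal eminence interneurons, was nearest to 4 selective regions. The highest, chr9:48928694-48929373, lay 17934 bp from its start and had 57.1 and 64.8 CPM in VIP, 1.57 and 2.22 in SST and 0 and 1.11 in PV. Its promoter passed the rule with a smaller contrast, at 13.9 and 14.8 CPM in VIP and 4.43 to 6.10 CPM elsewhere. The promoter of Crh, the gene of corticotropin-releasing hormone, had 10.4 and 17.4 CPM in VIP and 1.05 to 2.03 CPM elsewhere, with a phyloP score of 1.39. Calb2, which encodes calretinin, had 3 selective regions, Crispld2 had 5, Igf1 and Synpr had 2 each, and Cck, Cnr1 and Tac2 had 1 each. Chat, Penk, Sncg and Grpr had none, and neither Chat nor Sncg had any accessible region.

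Regulators of the caudal eminence lineage were close behind. Of the 10 genes listed, 7 had a selective region, against 21.5% of all genes nearest to accessible regions. In total, 28 of the 70 accessible regions of the listed genes (40.0%) were VIP-selective, with 1 SST-selective and 3 PV-selective. Prox1, the homeobox gene that VIP cells keep into adulthood, was nearest to 11 of them, out of 15 accessible regions. These spread from chr1:190076440 to chr1:190458270, with 8 outside genes, 2 within Prox1 and 1 at its promoter. The highest, 89093 bp from the start, had 31.8 and 36.7 CPM in VIP, 5.25 and 3.10 in SST and 2.03 and 3.33 in PV. Nr2f2, which encodes the nuclear receptor COUP-TFII, had 7 selective regions of 12 accessible ones, at 15213 to 653370 bp from its start. The highest of them, chr7:70129843-70130642, had 47.7 and 55.9 CPM in VIP, 6.30 and 6.65 in SST and 2.03 and 5.55 in PV, and 4 of the 7 had a phyloP score above 0.5. The related gene Nr2f1 had 1 selective region among 13. Sp8, a zinc finger gene of the caudal lineage, had its promoter (14.4 and 10.3 CPM in VIP, 0.886 to 1.57 elsewhere) and 1 further region, Nfib had 4, Nfix 2 and Meis2 1. No selective region was nearest to Npas1, Npas3 or Adarb2, although Adarb2 marks caudal eminence interneurons. Summed over the 10 genes, promoters had 212 and 197 CPM in VIP and 124 to 182 in the others. Promoters of Nr2f1 (8.94 and 4.47 CPM in VIP, 14.2 to 32.7 elsewhere) and Adarb2 (7.94 and 9.39, 13.7 to 28.0) were lower in VIP than in every other sample.

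**Figure D3:**
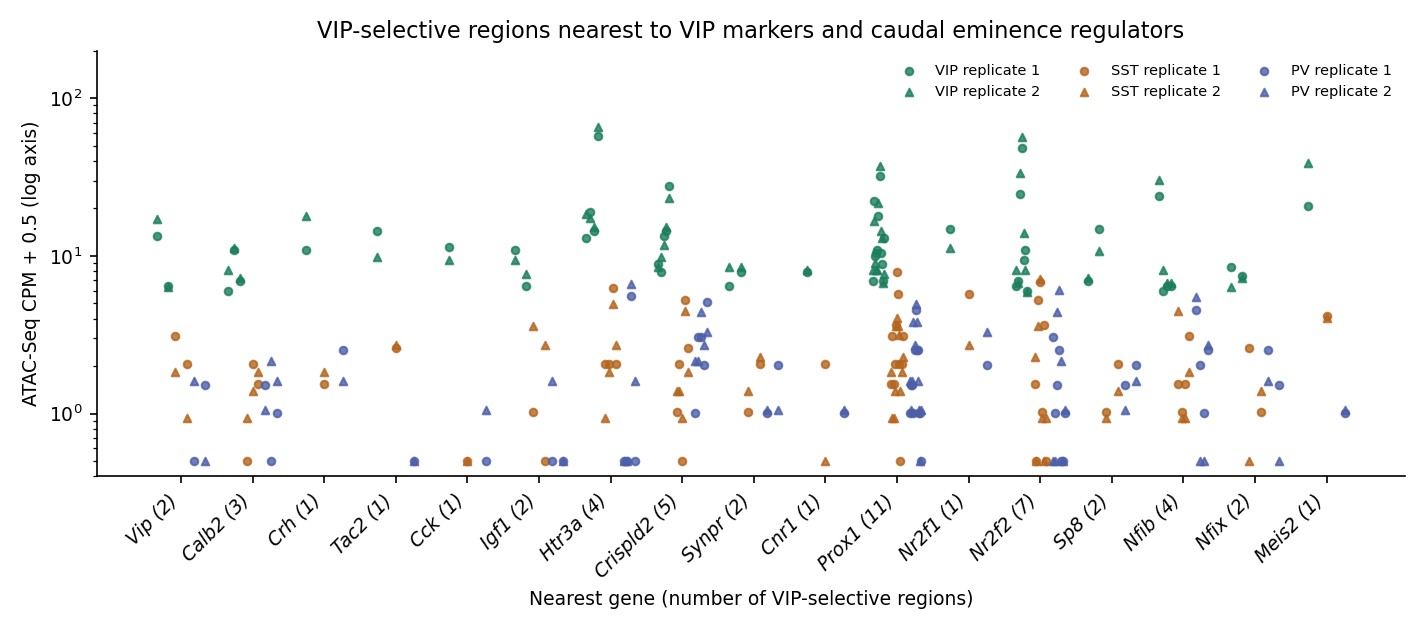
ATAC-Seq CPM with 0.5 added, on a log axis, of each VIP-selective region whose nearest gene is a VIP marker or a caudal eminence regulator, by gene, with the number of regions in brackets and 1 symbol per sample. The highest regions lie near Htr3a, at 57.1 and 64.8 CPM, and near Nr2f2, at 47.7 and 55.9 CPM in the VIP replicates.

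The other lists had lower shares of selective regions than these 2 lists. Near 13 markers of SST and PV interneurons there were 7 of 53 accessible regions (13.2%), close to the 12.8% over all accessible regions, and they belonged to only 2 genes. Elfn1, which encodes a synaptic adhesion protein, had 5, of which 4 lay within Mad1l1, and Pthlh, the gene of parathyroid hormone-related peptide, had 2. Near 7 regulators of the medial eminence lineage there were 11 of 60 (18.3%), and no interval was computed for this share. The 12.8% includes promoters, which were scarce among selective regions. Outside promoters, 4422 of 22316 accessible regions were VIP-selective. Of the 11 regions near medial eminence regulators, promoters included, Maf had 8, Satb1 2 and Mef2c 1, whereas Lhx6, Sox6 and Nkx2-1 had none. Genes shared by GABAergic neurons had 5 of 45 (11.1%), among them 1 each near Dlx1 and Dlx2, homeobox genes of interneuron development. The region at the Dlx1 gene had 18.9 and 22.4 CPM in VIP and 4.99 to 7.63 CPM elsewhere, and that near Dlx2 had 19.9 and 28.6 CPM in VIP and 4.99 to 7.35 CPM elsewhere. Among other cell types, 2 of 20 accessible regions near excitatory genes, 6 of 26 (23.1%) near astrocyte genes, 3 of 25 near oligodendrocyte lineage genes, 0 of 4 near microglia genes and 0 of 1 near vascular genes were VIP-selective. The astrocyte share, likewise from few regions and without an interval, was made up mainly by 4 regions near Sox9, at 144563 to 798497 bp from its start.

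Selective regions were spread over many genes, and a few genes had several. The 4738 regions had 3024 different nearest genes, of which 2032 had 1 region and 73 had 5 or more. The nearest start is a label of position, and the gene that a region acts on was not measured. The largest group lay along Gse1, which encodes a protein of a corepressor complex. Regions nearest to Gse1 numbered 11, of 20 accessible, and 12 more, of 29 accessible, were assigned to the start of Gins2, a replication gene at the far end of Gse1, although all 12 lay within Gse1 itself. None of the accessible regions of either gene was SST-selective or PV-selective. The highest of the Gse1 group, chr8:120449259-120450152, had 32.8 and 38.9 CPM in VIP, 1.57 and 1.77 in SST and 5.59 and 4.44 in PV.

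Sall1, a zinc finger gene, had 10 selective regions of 17 accessible ones. Its promoter had 31.8 and 34.9 CPM in VIP, 0 and 1.33 in SST and 0 and 0.555 in PV. A region 432985 bp away had 83.4 and 65.7 CPM in VIP and at most 1.77 CPM in the other samples. Fam19a5, which encodes a secreted protein, had 11 selective regions of 28 accessible ones, of which chr15:88036393-88037128 was the highest, at 73.0 and 75.1 CPM in VIP and 1.53 to 5.77 CPM elsewhere. Lrfn2, a synaptic adhesion gene, had 8 of 15, and the highest of these had 56.6 and 52.7 CPM in VIP and 0.443 to 3.88 CPM elsewhere. Ntm, which encodes the adhesion molecule neurotrimin, had 10 of 22, Zmiz1, which encodes a transcriptional coactivator, had 9 of 19, and Galnt17, a glycosyltransferase gene, had 8 of 20, of which 4 lay within Auts2. Beside these, Ntm and Zmiz1 each had 1 SST-selective region, and Fam19a5, Galnt17 and Lrfn2 each had 1 PV-selective region.

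Maf, whose product is a transcription factor of medial eminence interneurons, had 8 selective regions among 23 accessible ones, and 1 SST-selective and 2 PV-selective regions beside them. All 8 lay far from the start, at 158449 to 576475 bp, and 5 lay in introns of Wwox. The highest, chr8:115414007-115414813, had 81.4 and 98.8 CPM in VIP, 4.199 and 8.42 in SST and 2.54 and 3.33 in PV. At the Maf promoters the classes lay closer together, with 59.1 and 76.0 CPM in VIP, 52.5 and 46.1 in SST and 34.6 and 38.3 in PV.

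Whether VIP-selective regions also differed between SST and PV was tested, since the rule limits the higher of these values but does not use their difference. The read counts of all 40338 regions that passed a filter on low counts were fitted with edgeR's quasi-likelihood test over all 6 samples, with p-values adjusted by Benjamini-Hochberg over all of them. At a false discovery rate of 5%, 42 of the 4738 VIP-selective regions (0.886%) were higher in SST than in PV, where the share over all tested regions was 3.96%, and 45 (0.9498%) were higher in PV, where it was 4.33%. At an unadjusted p under 0.05 they numbered 236 and 273, and the share over all tested regions was not counted at this limit. All 4738 passed the filter, which reads VIP counts too, and the rule caps their SST and PV values, so the shares of calls are set in part by the choice of regions. They are given as a description, and nothing is read from them. The VIP-selective regions had a median of 12 reads over the 4 SST and PV samples, against 61 over all tested regions. DESeq2 called 8 and 11 of them, against 228 and 183 of all 40338 tested regions. edgeR without the filter called 0 and 0 of them and 0 and 0 of all 310118 regions tested there. At an unadjusted p under 0.05 this fit gave 256 and 221 of them, and the share over all regions was not counted there either. Leaving out SST replicate 1 or either PV replicate leaves 1 sample in that class. The calls among VIP-selective regions and over all tested regions then moved in the same direction. In the contrast that the rule used, VIP against the mean of SST and PV, all 4738 were called higher in VIP, which their choice from the same counts fixed, as were 24.9% of tested regions.

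The 10 called regions with the largest fold changes between SST and PV, 5 each way, rested on few reads, and their reads are given as a description. On the SST side, a region in an intron of Fgfr2, a fibroblast growth factor receptor gene, had 8 and 21 reads in SST and 0 and 1 in PV. A region in Iqsec3, which encodes a protein of inhibitory synapses, had 8 and 11 reads in SST and 1 and 0 in PV. Regions near Wscd1, Cd96 and Tac2 had 0 reads in both PV samples. They had 7 and 6, 9 and 3, and 4 and 5 reads in SST. Tac2, the gene of neurokinin B, is itself a VIP marker, and its region had 28 and 21 reads in VIP. On the PV side, a region near Ppp1r13b had 0 and 1 reads in SST and 6 and 12 in PV, and one near Rerg, a small GTPase gene, had 2 and 0 against 15 and 7. Regions in Foxn1, near Sox4 and near Crispld2 had 0 and 1 reads in SST and 4 to 9 reads in each PV sample. The regions passed the filter on low counts with the help of their VIP reads. Without this filter, 0 of all 310118 tested regions were called in either direction, so none of these calls held. A region with more reads was the intron of Hdac7, with 24 and 29 reads in SST and 61 and 57 in PV. Its log2 fold change was −1.29 ± 0.28 (SE, edgeR adjusted p = 0.00999 with the filter). This call too was lost without the filter.

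The sequences of the selective regions were searched for 19 short motifs in the central 300 bp on both strands. A match is a description of letters and does not show that a factor binds. Since VIP-selective regions are mostly distal and promoters differ in their letters, each share among the 4422 VIP-selective regions outside promoters is given beside that among the 22316 accessible regions outside promoters, a set that includes them. The NFI site TTGGCA was found in 36.7% (1621 regions, exact 95% interval 35.2 to 38.1) against 23.2%. The SOX site ACAATG was found in 20.8% (19.6 to 22.0088) against 11.9%, and the related ACAAAG in 25.2% against 19.2%. The E-box CAGCTG, which reads the same on both strands, was found in 54.2% (52.7 to 55.7) against 42.6%, and CAGATG in 41.9% (40.4 to 43.4) against 33.01%. The homeodomain site TAATTA (7.89% against 5.66%) and the MEIS/PBX site TGACAG (28.97% against 24.7%) also had higher shares in VIP-selective regions, as did RFX GTTGCCA (6.67% against 5.44%). The exact intervals of both shares overlapped for CAGGTG (23.2% against 24.03%), AGGTCA (13.8% against 14.04%), TAGGTCA, which contains it (1.63% against 2.102%, intervals 1.28 to 2.046 and 1.92 to 2.298), the AP-1 site TGANTCA (14.7% against 15.1%), the MAF core site TGCTGA (31.7% against 32.4%) and POU ATGCAAAT (2.804% against 2.17%). They were lower in VIP-selective regions for the GC box GGGCGG (10.2% against 15.96%), CTCF core AGGGGGC (5.72% against 7.85%), MEF2 TATTTTTA (2.397% against 3.17%), CRE TGACGTCA (0.475% against 0.896%) and ETS CCGGAAG (1.696% against 3.07%).

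The selective sets of the 3 classes differed in their letters. Over whole sets, promoters included, the NFI site was found in 36.1% of VIP-selective, 16.1% of SST-selective and 22.9% of PV-selective regions, and 20.7% of all reference regions. ACAATG was found in 20.2% of VIP-selective, 7.87% of SST-selective, 9.16% of PV-selective and 12.95% of all regions. CAGCTG was found in 53.3% of VIP-selective, 48.1% of SST-selective and 37.1% of PV-selective regions, and CAGATG in 41.03%, 43.6% and 29.6%. Other motifs were more frequent in the other classes. CAGGTG was found in 41.04% of SST-selective and 23.03% of VIP-selective regions, the AP-1 site in 21.9% of SST-selective and 14.3% of VIP-selective regions, and the nuclear receptor core site AGGTCA in 27.7% of PV-selective, 13.6% of VIP-selective and 5.33% of SST-selective regions. At least 3 of the 4 motifs marked in capitals above were present in 647 VIP-selective regions outside promoters (14.6%), compared with 6.55% of accessible, 6.21% of SST-selective and 3.94% of PV-selective regions outside promoters. These 4 were picked after their shares were seen.

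The expression of the nearest genes was taken from the snRNA-Seq sample. Of 47348 barcodes, the 32335 nuclei with more than 200 UMIs fell into 31 clusters. For each class, only the 1 cluster with the largest share of its markers high was used. These were the VIP-like (576 nuclei, median 603 UMIs), SST-like (888, median 772) and PV-like (1227, median 950) clusters. Further clusters of a class, if any, were left out. UMIs were summed in each class and scaled to CPM. The labels give 1 sample and name no animal, while the study's methods give 5 libraries per animal. No test between classes was made, and the intervals given here are exact and cover counting error only. Of the 3024 genes nearest to VIP-selective regions, 2888 were matched by symbol and 1793 had at least 20 UMIs over the 3 classes. Of these, 186 (10.4%, 9.0001 to 11.9) were at least 2 times higher in VIP-like nuclei than in both other classes, against 3.73% of all 10617 genes with as many UMIs. The share was 5.91% (5.25 to 6.63) for genes nearest to accessible regions outside promoters, 5.23% for those nearest to SST-selective and 5.11% for those nearest to PV-selective regions. It was 7.04% of genes nearest to 1 VIP-selective region, 12.9% with 2, 20.3% with 3 or 4 and 30.0% (15 of 50, 17.9 to 44.6) with 5 or more. Among genes with 5 or more accessible regions outside promoters, it was 9.86% (7.75 to 12.3) of the 700 with a VIP-selective region and 2.52% (0.931 to 5.41) of the 238 without. The same nearest genes were at least 2 times higher in SST-like nuclei in 2.23% and in PV-like nuclei in 3.46%, close to 1.69% and 3.05% of all genes. The class markers had served to name the clusters. Without them the share was 9.82%, an alternative added after the data were seen, and with nuclei that had a UMI of only 1 of Vip, Sst and Pvalb in place of clusters it was 6.05%, against 2.26% of all genes. With the first 5 libraries alone the share was 9.31%, and with the other 5 alone it was 10.9%.

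**Figure D4:**
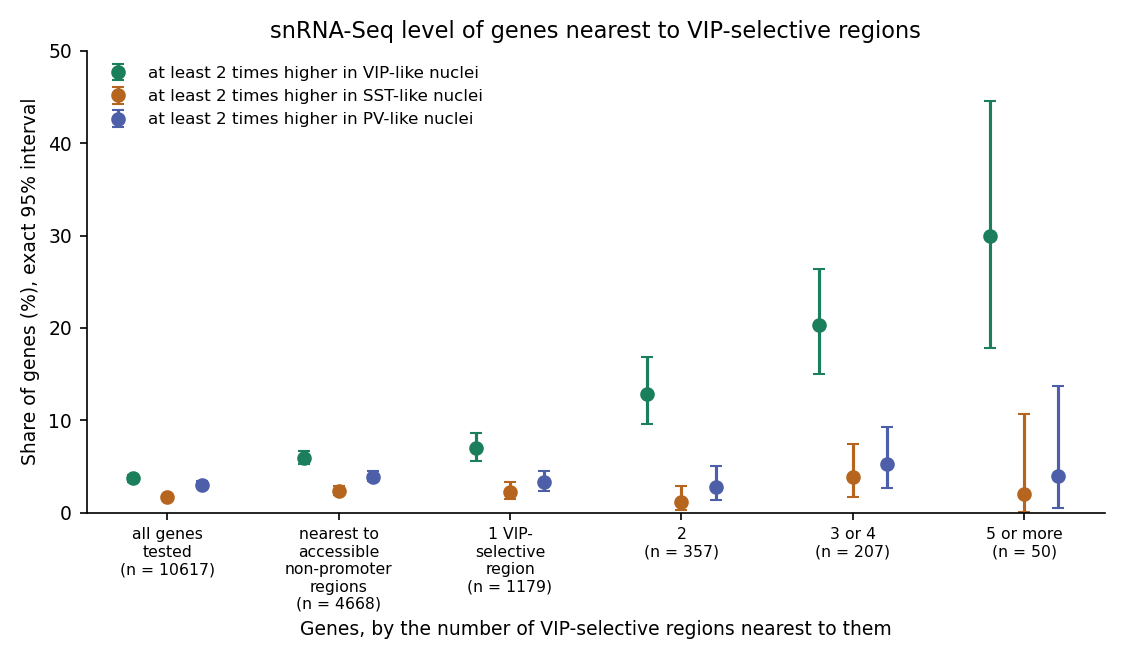
Share of genes, in percent with the exact 95% interval, that were at least 2 times higher in VIP-like, SST-like or PV-like nuclei than in both other classes, for genes grouped by the number of VIP-selective regions nearest to them. For VIP-like nuclei the share goes from 7.04% of genes with 1 region to 30.0% with 5 or more, and for SST-like and PV-like nuclei it stays between 1.12% and 5.31% in the groups with a region.

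Several genes with many selective regions were enriched in VIP-like nuclei, and others were not. Prox1 had 278 CPM (232 to 332, from 124 UMIs) in VIP-like, 1.22 in SST-like and 3.82 in PV-like nuclei. Nr2f2 had 314 CPM (264 to 371) in VIP-like, 51.1 in SST-like and 12.99 in PV-like nuclei, and Sall1 had 76.3, 2.43 and 0. Lrfn2 had 31.4 CPM (17.2 to 52.7, from 14 UMIs) in VIP-like, 7.30 in SST-like and 10.7 (5.85 to 17.9) in PV-like nuclei, and the last intervals overlap. Prox1, Npas1 and Adarb2 had served to name the VIP-like cluster, so their levels were in part set by that choice. Of the 10 caudal eminence regulators, 8 passed the 2-fold rule, including Npas1, Npas3 and Adarb2, which had no VIP-selective region. Conversely, Meis2 and Nr2f1 had selective regions and did not pass. Maf had 368 CPM (314 to 429) in VIP-like, 496 (449 to 547) in SST-like and 432 (397 to 469) in PV-like nuclei, and Ntm and Fam19a5 likewise stayed within 2-fold of at least 1 other class. Gse1 had 62.9 CPM (41.8 to 90.9) in VIP-like, 30.4 (19.7 to 44.9) in SST-like and 42.01 (31.6 to 54.7) in PV-like nuclei. Gins2 had 0 UMIs in VIP-like, 2 in SST-like and 0 in PV-like nuclei, below the minimum of 20 UMIs. Among SST and PV markers, Pthlh, which had 2 selective regions, was the 1 gene of 12 that passed, with 258 CPM (213 to 310) in VIP-like, 1.22 in SST-like and 50.4 in PV-like nuclei. Elfn1, which had 5, stood at 199.8 CPM in VIP-like, 382 in SST-like and 3.82 in PV-like nuclei. Of the VIP markers, most of which had served to name the cluster, 11 of 12 passed, and of the medial eminence regulators 0 of 6. Lhx6, Sox6 and Satb1 of the latter, and the listed SST and PV markers, had likewise served to name the SST-like or PV-like cluster. No tested gene of the excitatory, astrocyte, microglia or vascular lists passed, whereas Dlx2 of the GABAergic genes and Pdgfra of the oligodendrocyte lineage genes did. For Pdgfra this rested on the first 5 libraries, with 107 CPM in VIP-like nuclei, since in the other 5 it had 22.6 CPM in VIP-like and 12.2 in SST-like nuclei.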

How the data were processed

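ATAC-Seq was analysed in 6 samples, 2 each of VIP, SST and PV interneuron nuclei, and snRNA-Seq in 1 sample. The authors trimmed 75-base single-end reads with Trimmomatic 0.33, aligned them to mm10 with Subread 1.4.6-p3, dropped duplicate reads and, in each sample, kept peaks found by both MACS2 and HOMER. The deposited peak lists hold a −log10 q-value. The deposited counts per region are raw. A binary table deposited by the authors gives 0 or 1 for a region in a sample, with its phyloP score. The deposited snRNA-Seq counts are UMIs per nucleus.

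Counts were scaled to CPM of the column sum, with a pseudocount of 0.5 for ratios. The members, gene lists and motifs were chosen with earlier results of these data known. Positions used protein-coding genes of GENCODE vM21, and sequences came from GRCm38.p6, the build of the files. SST and PV were compared with edgeR 4.0.16 (filterByExpr, TMM, quasi-likelihood, false discovery rate 5%) in R 4.3.3, and DESeq2 1.42.0 was an alternative. The biological coefficient of variation was 0.181. The test was run on simulated data, with a log2 change of 2 in regions drawn from all that passed the filter. This check did not address the depth of the VIP-selective regions. Nuclei over 200 non-viral UMIs were clustered with Seurat 5.3.0 (5419 variable genes, 30 components, resolution 1.5), and clusters were named from marker lists by a rule set after the clusters were seen. Doublets were not called, and 5476 barcode names occurred in more than 1 library. Intervals of medians are 95% order-statistic intervals. Calculations used python 3.11.15, numpy 2.4.6, scipy 1.17.1, pandas 2.3.3 and matplotlib 3.10.9.

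Regions were named by rule: the 10 largest ratios and 10 highest levels, regions nearest to the 81 listed genes, the 10 genes with most members, the 5 highest phyloP scores, the 3 regions at each side of each threshold, and the 5 largest differences between SST and PV each way. Alternatives covered thresholds, scaling, filters, the replicate block and left-out replicates. Nuclei behind each ATAC-Seq sample were not counted in the sources used here. The viral barcodes and the elements of the screen were not analysed here, and values of some named regions and genes are not reported here.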

Additional observations from a re-analysis of the deposited data

How the results depend on the processing

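The number of VIP-selective regions was 2380 with a minimum of 10 CPM, 3233 with at least 3 times, 6757 with a minimum of 3 CPM, 6300 with at least 1.5 times, 5363 after TMM scaling and 7923 with group means, and 4995 to 7318 when 1 replicate was left out, the highest without VIP replicate 1. The median phyloP score was 0.175 with 10 CPM. The share outside genes was 51.4% with 3 times and 39.7% with genes of all types, and the share at promoters was 8.78%, 4.58% and 10.0% with 10 CPM, 3 times and genes of all types. The median distance under these settings was 50676 bp, 58472 bp and 19657 bp.

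Of the VIP-selective regions, 0 were called between SST and PV in either direction without the filter, as were 0 of all 310118 regions tested there. DESeq2 called 8 higher in SST and 11 higher in PV, against 228 and 183 of all 40338 tested regions. Leaving out 1 replicate gave 11 to 121 higher in SST and 12 to 77 higher in PV, and 3991 to 4738 higher in VIP. These fits tested 53326 to 56308 regions, against 40338 in the main fit. Where SST replicate 1 or either PV replicate was left out, calls between SST and PV over all tested regions moved in the same direction as those among VIP-selective regions. They did so too without VIP replicate 2 or SST replicate 2. Without VIP replicate 1, the calls higher in PV moved in opposite directions. Every fit with a replicate left out, VIP replicates included, has 1 sample in that class. Its counts are given as a description, and nothing is read from them. Nothing in the labels ties equal replicate numbers of different classes together. The differences between replicates 1 and 2 had correlations between classes of −0.0277 to 0.0316 over accessible regions. Counting error can hide a shared batch in such differences, so these correlations cannot decide whether there was a batch. With a replicate block, 34 VIP-selective regions were higher in SST, 36 higher in PV and 4736 higher in VIP. Over all 40338 tested regions these numbers were 1244, 1313 and 9891.

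The share of nearest genes at least 2 times higher in VIP-like nuclei was 6.05% with nuclei chosen by Vip, Sst and Pvalb, 7.74% with at least 100 UMIs (2.45% of all genes) and 18.0% with at least 1.5 times (8.51% of all genes), and 9.31% without library set 2. At least 1 of the 19 motifs was found in 98.4% of VIP-selective and 95.8% of accessible regions, so nearly all regions of either set had one. With whole regions these shares were 99.96% and 99.86%, and with the central 150 bp 89.8% and 80.6%. The NFI site was found in 53.8% of VIP-selective and 36.6% of accessible regions with whole regions. With the central 150 bp it was found in 23.3% and 10.1%. The share of each single motif moved with either window. Apart from these, 41 of 68 values under alternatives kept their main value within the limits set and 27 moved. The limits are not given here, so these counts do not measure how stable the results are. For the number of regions, 6757 and 3233 against 4738 counted as kept. A median phyloP score of 0.175 against 0.144 counted as moved. By construction, looser thresholds and left-out replicates can only add VIP-selective regions, stricter thresholds can only remove them, and wider windows can only add motif matches. The cause of the other moves was not tested. The power of the comparison of SST with PV at the depth of these regions, a median of 12 reads over 4 samples, was not measured.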
